A study of Mus musculus with 4 samples.

Results

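The genes described here are 10 markers of vascular endothelial cells, the cells that line blood vessels. They are the adhesion and junction genes Pecam1, Cdh5 and Esam, the surface sialomucin gene Emcn, and the VEGF receptors Kdr and Flt1. The others are the angiopoietin receptor Tek and its partner Tie1, the TGF-beta co-receptor Eng, and the clotting protein gene Vwf. Members were the probe sets that the platform annotation assigns to exactly 1 of these genes. There were 15 of them among 34945 probe sets with a single gene, and they stand for 10 of 18193 genes. Of the 10 genes, 7 had 1 probe set, Cdh5 and Eng had 2 each and Flt1 had 4.

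The arrays hold RNA of satellite cells, the stem cells of skeletal muscle, from the hindlimb muscle of C57BL/6 mice, a wild-type laboratory strain whose substrain is given as C57BL/6J. The aged mice were 20 to 25 months old and the young mice 3 to 6 months old, with 2 pools of mice and 2 arrays for each age. The series text gives 4 to 8 mice for a pool and the sample text 6 to 8, syndecan-4, a proteoglycan on the surface of satellite cells, served to sort the cells of each pool, and no treatment is given for either age. The sex of the mice is not given in the sources used here, and the X-inactivation transcript Xist stood 6.16 ± 0.44 log2 units higher in aged pools (standard error, limma), so that sex, if it differed, cannot be told apart from age.

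Endothelial cells line every vessel and supply the dense capillary bed that surrounds muscle fibres. VEGF acts on them mainly through Kdr, while Flt1 binds VEGF tightly and, in its soluble form, holds it away from Kdr. Angiopoietins act through Tek, a receptor kinase that stabilises mature vessels, and Tie1 is an orphan relative that joins Tek and tunes its signal. Cdh5 (VE-cadherin), Pecam1 and Esam hold neighbouring endothelial cells together, and satellite cells lie close to capillaries in muscle.

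Values are taken as log2, and the authors' table has each probe set centred on the median of its 4 values. They give differences between arrays and no level, so it cannot be said whether any of these genes was abundant or barely present in the sorted cells, and the endothelial label cannot be checked against a level. With 4 arrays, centring also makes the middle 2 values of a probe set mirror each other around 0, so only differences are read. In bulk RNA, fewer endothelial cells and less RNA per endothelial cell cannot be told apart.

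None of the 10 genes differed between aged and young pools at an adjusted p of 0.05 (limma on all 18193 genes, Benjamini-Hochberg adjustment). The percentage of all genes called by that rule was 0, so the empty count says little about these genes alone. At an unadjusted p of 0.05, 1 member was lower in aged pools, Tie1, and 0 were higher, against 6.19% and 2.85% of all genes. The difference was negative in 8 of 10 members and positive in Kdr and Esam, where 46.2% of all genes were lower in aged pools. The median difference over the members was -0.37 log2 units beside 0.05 over all genes. In 8 of the 10 genes the difference was smaller than its own standard error. Only in Tie1 did the aged pools both lie below both young pools, a pattern that 16.9% of all genes showed, and in 0 members did they both lie above, against 19.9% of all genes. Of the 15 probe sets, 2 had both aged pools below both young pools and 0 had them above, against 16.3% and 18.4% of all probe sets. No probe set of the 15 had an unadjusted p under 0.05 in the limma fit, beside 7.94% of all probe sets, and the percentage called after adjustment was 0. The exact permutation test for 2 against 2 arrays cannot give a two-sided p below 0.333.

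**Figure D1:**
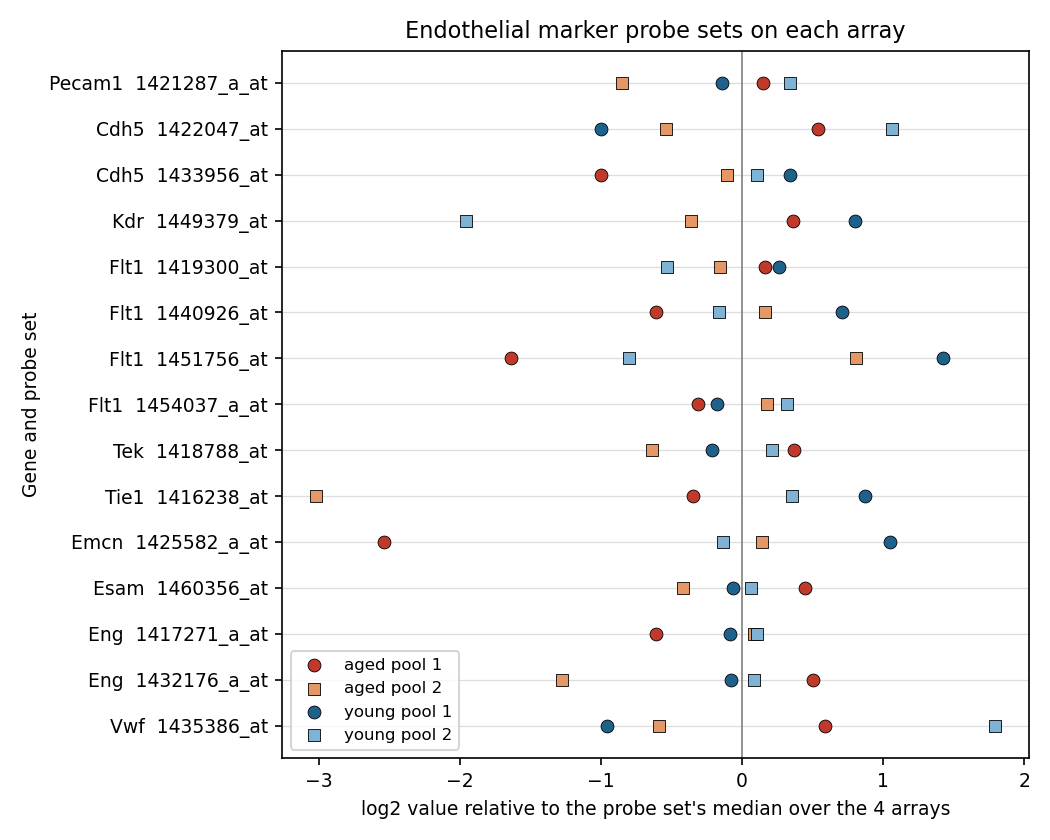
Centred log2 value of each of the 15 probe sets (horizontal axis), on the 2 aged and 2 young arrays, 1 symbol per array. The ages are intermingled in 13 of 15 probe sets, and Tie1 in aged pool 2 (-3.02) and Emcn in aged pool 1 (-2.54) are the lowest points.

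Pecam1 (CD31), an immunoglobulin-family adhesion protein of endothelial cells, platelets and many leukocytes, stood at 0.15 and -0.85 in aged pools 1 and 2, against -0.15 and 0.34 in young pools 1 and 2. The ages overlapped, since aged pool 1 lay above young pool 1. The log2 difference was -0.45 ± 0.49 (standard error; 95% interval -1.66 to 0.76; adjusted p = 0.893 with limma), and without aged pool 2 it was 0.050.

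Cdh5 encodes VE-cadherin, the cadherin of endothelial adherens junctions, and its 2 probe sets disagreed. Probe set 1433956_at stood at -1.004 and -0.106 in aged pools 1 and 2, against 0.342 and 0.106 in young pools 1 and 2, with no overlap. Probe set 1422047_at stood at 0.54 and -0.54 in aged pools 1 and 2, against -1.004 and 1.06 in young pools 1 and 2. In 1422047_at the young pools enclosed the aged ones. The differences were -0.78 ± 0.50 and -0.03 ± 0.86 (adjusted p = 0.833 and 1 in the limma fit over all 34945 probe sets). Their mean gave a gene difference of -0.40 ± 0.45 (95% interval -1.52 to 0.72), which was 0.054 without young pool 2.

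Esam, an adhesion molecule of endothelial tight junctions that platelets also carry, stood at 0.45 and -0.42 in aged pools 1 and 2, against -0.07 and 0.07 in young pools 1 and 2. The young pools lay between the aged ones. The difference was 0.01 ± 0.44 (95% interval -1.09 to 1.11), the smallest of the 10, and its sign turned with each array centred on its median (-0.028), without young pool 1 (-0.053) and without aged pool 1 (-0.42).

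Emcn, an endothelial surface sialomucin found mostly on capillaries and veins, stood at -2.54 and 0.14 in aged pools 1 and 2, against 1.05 and -0.14 in young pools 1 and 2. Only aged pool 1 was far below the young pools, while aged pool 2 lay between them. The difference was -1.66 ± 0.95 (3.15-fold; 95% interval -4.02 to 0.71; adjusted p = 0.735 with limma), and it was -0.32 without aged pool 1.

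Kdr (VEGFR2), the main signalling receptor for VEGF, stood at 0.36 and -0.36 in aged pools 1 and 2, against 0.80 and -1.96 in young pools 1 and 2. The young pools were the highest and the lowest of the 4 arrays. The difference was 0.58 ± 0.93 (95% interval -1.73 to 2.89; adjusted p = 0.934 with limma). It was 1.96 without young pool 1 and -0.80 without young pool 2, so its direction rested on which young pool was kept.

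Flt1 (VEGFR1), the high-affinity VEGF receptor with a soluble form, had 4 probe sets, of which 3 were lower in aged pools. Probe set 1451756_at varied most, at -1.64 and 0.81 in aged pools 1 and 2, against 1.42 and -0.81 in young pools 1 and 2. Its difference was -0.73 ± 1.15. In that probe set aged pool 1 was lowest and young pool 1 highest, and the pools numbered 2 lay between them in the opposite order. Probe set 1440926_at ranked the arrays in the same order, at -0.61 and 0.16 in aged pools 1 and 2, against 0.71 and -0.16 in young pools 1 and 2. The remaining pair, 1419300_at and 1454037_a_at, differed by 0.14 ± 0.48 and -0.14 ± 0.45. As a gene Flt1 differed by -0.31 ± 0.51 (95% interval -1.57 to 0.95; adjusted p = 0.938 with limma), and by 0.12 without young pool 1 and also without aged pool 1.

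Tie1, the orphan receptor kinase that works beside Tek, stood at -0.35 and -3.02 in aged pools 1 and 2, against 0.87 and 0.35 in young pools 1 and 2. Both aged pools were below both young pools, aged pool 2 by far the most. The difference was -2.30 ± 0.89, or 4.91-fold, with a 95% interval of -4.51 to -0.08 and an adjusted p of 0.529 with limma. Without aged pool 2 the difference was -0.96, and over the 4 fits that each left out 1 pool it ran from -3.63 to -0.96. In the fit over single probe sets, where eBayes takes its prior spread from probe sets in place of genes, the 95% interval of the same value was -4.85 to 0.25. With eBayes allowed a variance trend, the adjusted p of Tie1 was 0.894.

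Tek (Tie2), the angiopoietin receptor, did not share that pattern. It stood at 0.36 and -0.64 in aged pools 1 and 2, against -0.21 and 0.21 in young pools 1 and 2, so that the aged pools enclosed the young ones. The difference was -0.14 ± 0.48 (95% interval -1.34 to 1.06; adjusted p = 0.975 with limma), and it was 0.07 without young pool 2 and 0.36 without aged pool 2. The difference between Tie1 and Tek in their response was not tested.

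Eng (endoglin), a co-receptor for BMP9 and TGF-beta on endothelial cells that some stromal cells and macrophages also carry, had 2 probe sets. Probe set 1417271_a_at stood at -0.61 and 0.08 in aged pools 1 and 2, against -0.08 and 0.11 in young pools 1 and 2. Probe set 1432176_a_at stood at 0.50 and -1.28 in aged pools 1 and 2, against -0.08 and 0.08 in young pools 1 and 2. The young pools were close together in either probe set, and the aged pool that was low was a different one in each. The gene difference was -0.33 ± 0.39 (95% interval -1.31 to 0.65; adjusted p = 0.905 with limma). As a mean of the 2 probe sets it was negative in each of the 4 fits that left out 1 pool, from -0.60 to -0.06. Each probe set alone changed sign in those fits, from -0.62 to 0.07 for 1417271_a_at and from -1.28 to 0.50 for 1432176_a_at.

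Vwf, the clotting protein that endothelial cells and megakaryocytes store and release, stood at 0.59 and -0.59 in aged pools 1 and 2, against -0.96 and 1.79 in young pools 1 and 2. As with Kdr, the young pools were the extremes, but in the opposite order. The difference was -0.42 ± 0.97 (95% interval -2.83 to 1.99; adjusted p = 0.958 with limma), and it was -1.79 without young pool 1, 0.96 without young pool 2 and 0.17 without aged pool 2.

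**Figure D2:**
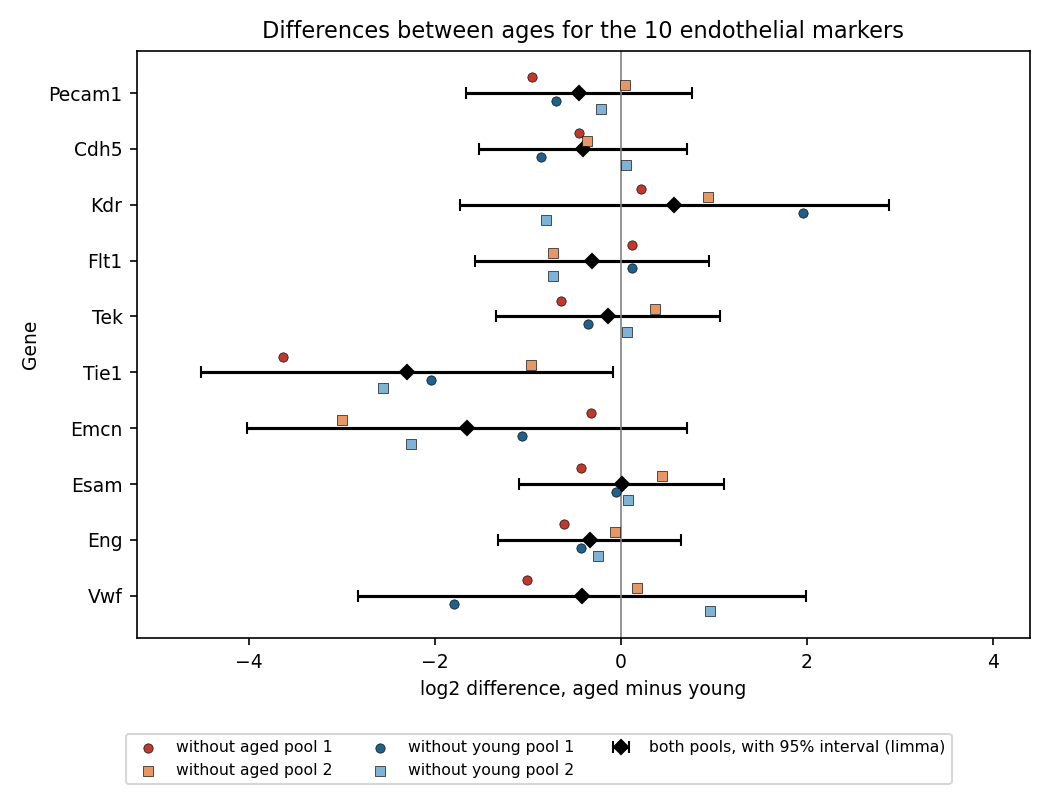
Log2 difference of aged minus young pools (horizontal axis) for the 10 genes, with its 95% interval from limma (black, 2 pools per age) and the differences without each pool in turn (coloured). The interval includes 0 in 9 of 10 genes, and the differences without 1 pool lie on both sides of 0 in 7 genes, all but Tie1, Emcn and Eng. For Eng this holds for the mean of its 2 probe sets, each of which changed sign without 1 pool.

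For every one of the 10 genes, the gap between the pools of at least 1 age was larger than the difference between ages, as it was in 75.1% of all genes. Leaving out 1 pool turned the sign in 7 of the 10, against 49.7% of all genes. The intervals were wide, with half-widths of 0.98 (Eng) to 2.41 (Vwf) log2 units, so that a 2-fold lower value in aged pools, a log2 difference of -1, lay inside the interval of all 10 genes. In the gene fit, a 2-fold higher value lay inside the interval of 4 of them, Kdr, Tek, Esam and Vwf. In the fit over single probe sets it also lay inside that of Emcn (upper end 1.06), Cdh5 1422047_at (2.22) and Eng 1432176_a_at (1.46). The same held for Flt1 1451756_at (2.30), 1419300_at (1.40) and 1454037_a_at (1.055).

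The gaps between pools of 1 age ran in different directions for different members. Kdr was 6.76-fold lower in young pool 2 than in young pool 1, while Vwf was 6.73-fold higher there, and either gap was wider than in 97.2% of all probe sets. Between the aged pools, Tie1 was 6.35-fold lower in aged pool 2 and Emcn 6.40-fold lower in aged pool 1, wider than in 95.7% and 95.8% of all probe sets. Aged pool 2 was below aged pool 1 in 8 of 10 members, all but Flt1 and Emcn, where 46.4% of all genes had aged pool 1 higher. Aged pool 2 was the lowest array for 5 members (Pecam1, Tek, Tie1, Esam and Eng), where it was lowest in 23.4% of all genes. The median over the 10 members was 0.05 in aged pool 1 and -0.51 in aged pool 2, against -0.07 in young pool 1 and 0.15 in young pool 2. Without aged pool 2 the median difference of the members was -0.01, with 5 lower and 5 higher. The mean over the 10 members gave another picture, at -0.19 in aged pool 1 and -0.64 in aged pool 2. In young pools 1 and 2 that mean was 0.15 and 0.10, above both aged pools. Emcn, at -2.54, was the lowest member in aged pool 1.

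Over probe sets, the standard deviation between pools of 1 age had a median of 0.58 in the members and 0.51 in all probe sets, and 10 of the 15 lay above the median of all probe sets. The spread was smallest in Flt1 1454037_a_at and Eng 1417271_a_at, and largest in Flt1 1451756_at, Vwf, Emcn and Kdr, wider than in 92.4% to 95.5% of all probe sets.

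**Figure D3:**
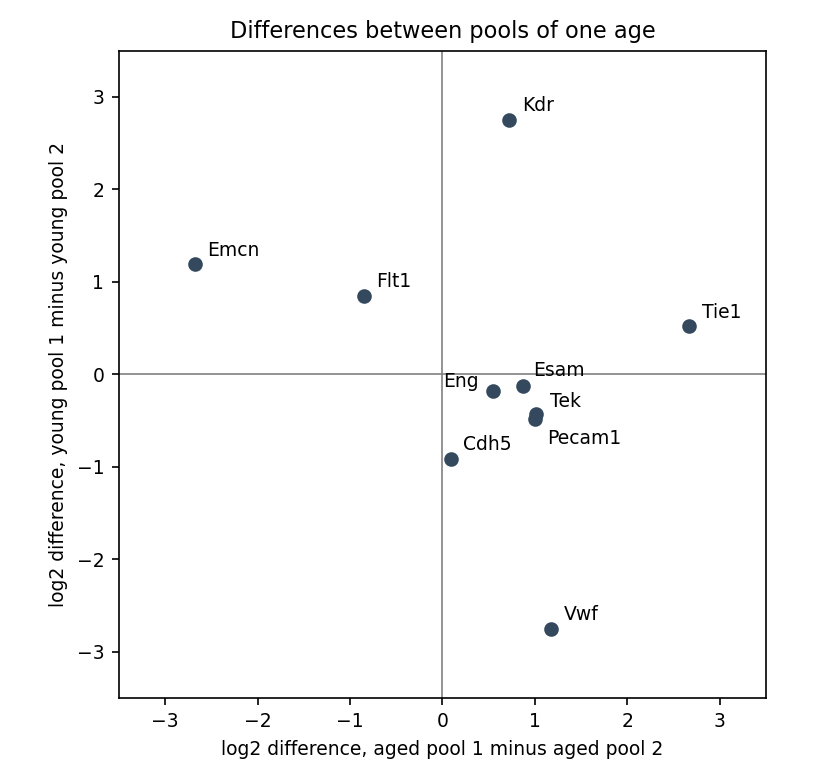
Log2 difference between the 2 aged pools (horizontal axis) and between the 2 young pools (vertical axis) for each of the 10 genes, 1 point per gene. Kdr (2.76) and Vwf (-2.75) lie at opposite ends for the young pools, and Tie1 (2.67) and Emcn (-2.68) for the aged pools.

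Other genes of endothelial cells were set beside the members. Of 20 further pan-endothelial genes, 13 were higher and 7 lower in aged pools, with a median of 0.05, and 1 in each direction had an unadjusted p under 0.05. These were Cyyr1, at 1.25 ± 0.36, and Egfl7, a secreted protein of growing vessels, at -1.08 ± 0.38 (adjusted p = 0.355 and 0.462 with limma). Ecscr had the next smallest p-value of that list, at -0.99 ± 0.44. Egfl7, as the mean of 4 probe sets, stood at -0.48 and -0.52 in aged pools 1 and 2, against 0.79 and 0.37 in young pools 1 and 2. Its aged pools were close together, unlike those of Tie1, but Tie1 had 1 probe set and no such averaging. Endothelial transcription factors were split evenly, 8 higher and 8 lower of 16, with a median of -0.04. Among them the bHLH factor Lyl1 stood at -1.37 ± 0.51 and the ETS factor Ets1 at 0.95 ± 0.39 (adjusted p = 0.498 and 0.563 with limma), and Lyl1 was at -0.77 without aged pool 1. Meox2, with the next smallest p-value, stood at -1.19 ± 0.67, and from -2.12 to -0.25 without 1 pool.

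Genes of particular vessel types gave no common direction either. Of 9 capillary genes 5 were higher and 4 lower, with a median of 0.06, and 0 had an unadjusted p under 0.05. The capillary lipase anchor Gpihbp1 (-1.005 ± 0.447), the membrane carbonic anhydrase Car4 (-1.49 ± 0.68) and Cd300lg (-1.03 ± 0.50) had the smallest p-values of that list. Each was lowest in aged pool 2, at -0.91, -2.03 and -1.04, as Tie1 was, and without that pool the differences were -0.64, -0.55 and -0.56. Arterial genes were 5 higher and 5 lower of 10 (median 0.07), with the Notch ligand Jag1 at 1.44 ± 0.42 and the kinase Bmx at 1.59 ± 0.59 (0.85 without aged pool 1). Efnb2 followed them by p-value, at -0.67 ± 0.46. Venous genes were 3 higher and 4 lower of 7 (median -0.23), with the secreted glycoprotein Lrg1 at -1.75 ± 0.47 and the leukocyte adhesion receptor Sele at 1.07 ± 0.45 (0.62 without aged pool 2). Aplnr followed them by p-value, at -1.71 ± 1.14, and from -3.34 to -0.08 without 1 pool. Lymphatic genes were 4 higher and 2 lower of 6 measured (median 0.12), with Pdpn, which fibroblasts also carry, at 2.95 ± 0.48 and Lyve1, which some macrophages also carry, at -1.72 ± 0.55 (-1.11 without young pool 1). Prox1 of the same list stood at 1.14 ± 0.45, and from 0.69 to 1.59 without 1 pool. Over these 6 lists 38 of 68 genes were higher and 30 lower, and 9 of them, 5 higher and 4 lower, had an unadjusted p under 0.05. That is 13.2%, beside 9.04% of all genes, and none passed after adjustment with limma.

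Ligands of the member receptors also lay on either side of 0, with 5 higher and 7 lower of 12 and a median of -0.14. Angpt1, the ligand that activates Tek, stood at -0.50 and -0.55 in aged pools 1 and 2, against 0.49 and 0.96 in young pools 1 and 2. Both aged pools were below both young pools (-1.26 ± 0.38, 2.39-fold; adjusted p = 0.394 with limma). The VEGF-family ligands Pgf and Vegfd stood at 0.90 ± 0.41 and 1.37 ± 0.64 (adjusted p = 0.623 and 0.628 with limma), with Vegfd at 0.62 without aged pool 1 and 2.12 without aged pool 2. Receptor partners and signal transducers were 8 higher and 4 lower of 12 (median 0.19, but 0.06 without aged pool 2). The TGF-beta receptor Tgfbr2 stood at 0.90 ± 0.43 (0.51 without aged pool 1). The BMP transducer Smad1 stood at -1.60 ± 0.77, which was -0.47 without aged pool 2 and -2.72 without aged pool 1. Junction partners were 9 higher and 3 lower of 12, with a median of 0.33 that ran from 0.06 to 0.21 without 1 pool and was lowest without young pool 1. The 1 with an unadjusted p under 0.05 was Jup, plakoglobin, at -1.38 ± 0.51 (adjusted p = 0.493 with limma; -0.90 without young pool 1).

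**Figure D4:**
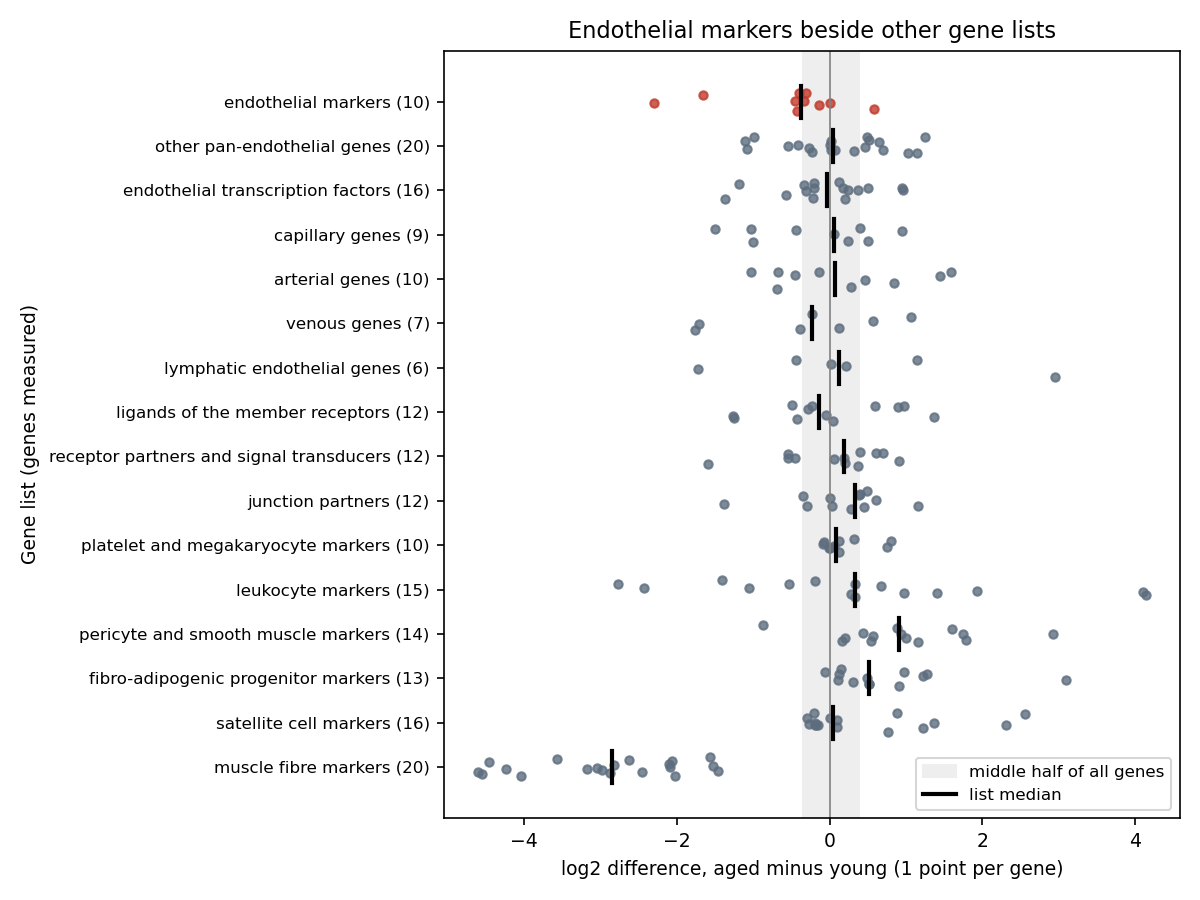
Log2 difference of aged minus young pools (horizontal axis) for each gene of 16 lists, 1 point per gene, with the list median (bar) and the middle 50% of all genes (grey band). The endothelial markers (red) have a median of -0.37, with 8 of 10 below 0, and the lists of vessel types have medians from -0.23 to 0.12. Muscle fibre markers (median -2.84) lie far below 0 and pericyte markers (median 0.91) above it.

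Muscle fibre and pericyte markers stood further from 0 as lists than the members, although none passed after adjustment with limma. All 20 muscle fibre markers were lower in aged pools (median -2.84), and 13 of 14 pericyte and smooth muscle markers were higher (median 0.91), among them the pericyte gene Rgs5 at 2.93 ± 0.58 (adjusted p = 0.196 with limma). The pericyte list is not exclusive, since Notch3 (0.88 ± 0.38) is also in the satellite cell list. Averaged over the pericyte list, aged pools 1 and 2 stood at 0.65 and 0.43, against -0.34 and -0.46 in young pools 1 and 2. Averaged in the same way, the endothelial markers stood at -0.19 and -0.64 in aged pools 1 and 2, against 0.15 and 0.10 in young pools 1 and 2. By the mean, both aged pools were thus below both young pools, with Emcn at -2.54 weighing on that of aged pool 1. By the median, aged pool 1 (0.05) lay between the young pools, and only aged pool 2 (-0.51) lay below them. Pericytes wrap the same capillaries that endothelial cells line, and the median differences of the 2 lists had opposite signs, that of the endothelial markers being near 0 without aged pool 2 (-0.0055). The difference between the lists was not tested. The fibre genes with the smallest p-values were the thin filament protein Tmod4 at -4.60 ± 0.40 and the calcium release channel Ryr1 at -4.45 ± 0.42 (adjusted p = 0.0998 for either with limma). Of 13 measured markers of fibro-adipogenic progenitors, the stromal cells between fibres, 12 were higher (median 0.51, but 0.32 without young pool 1), with the matrix protein Mgp at 3.10 ± 0.94.

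Several members are also carried by blood cells, so leukocyte and platelet markers were read beside them. Of 15 measured leukocyte markers 9 were higher and 6 lower. Their median was 0.33, but 0.07 without young pool 1, 0.63 without young pool 2 and 0.19 without aged pool 1. Their mean was 0.12 and 0.17 in aged pools 1 and 2, against -0.37 and -0.13 in young pools 1 and 2. Cd3g and Cd3d, which belong to the receptor complex of T cells, had the smallest p-values of that list, at 4.15 ± 0.47 and 4.11 ± 0.50 (adjusted p = 0.0998 and 0.110 with limma), and their aged pools both lay above both young pools. Cd3e, another chain of that complex in the list, differed far less, at 0.34 ± 0.37 (adjusted p = 0.894 with limma). The macrophage marker Adgre1 stood at -2.42 ± 0.36 and Ptprc, the general leukocyte marker, at 1.93 ± 0.58 (1.16 without young pool 2). Of 10 measured platelet and megakaryocyte markers 7 were higher and 3 lower, from -0.08 to 0.80 (median 0.09), and in 0 of them did the ages not overlap, against 16.9% of all genes lower and 19.9% higher without overlap. Among satellite cell markers 9 of 16 were higher (median 0.05), with Pax7 at 2.31 ± 0.36 and the sorted protein's gene Sdc4 at 1.22 ± 0.53 (0.57 without young pool 2). The part that fibre, pericyte, blood or satellite cell RNA had in the endothelial values was not tested.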

How the data were processed

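The table deposited by the authors holds log2 values of 45101 probe sets on 4 Affymetrix arrays, 1 per pool; log2 is an assumption here, and with another base every fold would differ. Per the labels' protocols, total RNA was amplified in 2 rounds of a linear T7 reaction and labelled with biotin. Each probe set's 4 values have a median of 0 (within 5e-07). How background, probes and arrays were handled is not given in the sources used here. The number of arrays limits the precision.

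The platform annotation gave the gene of each probe set, and current symbols came through the Entrez ID from GRCm38.p6 (34741 matched). The 932 probe sets with several genes, 9160 with none and 64 controls were left out, and 0 of the 932 named a member. Probe sets of a gene were averaged. The test was limma 3.58.1 under R 4.3.3 (lmFit and eBayes without trend, two-sided, no covariate, all 4 arrays), adjusted by Benjamini-Hochberg over 18193 genes or 34945 probe sets, with a threshold of 0.05. The ± gives the standard error from this model, with n = 2 pools for each age. The labels call the pools biological replicates.

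The text names every member, Xist, Pax7, Sdc4 and Ptprc, and otherwise genes from among the 3 with the smallest unadjusted p in each comparison list. Cd3e is named in addition, beside Cd3g and Cd3d. Members and lists were chosen with earlier results of these data known. The alternatives were quantile normalization, median centring, other summaries of probe sets, eBayes with trend or robust, a replicate block, and leaving out each pool. The fit was tested on simulated data. Python 3.11.15 and matplotlib 3.10.9 drew the figures.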

Additional observations from a re-analysis of the deposited data

How the results depend on the processing

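The count of genes past the adjusted threshold was 0 with limma as fitted (1645 at an unadjusted p under 0.05) and 0 under every alternative but 1. With eBayes and a variance trend, which here uses the mean of centred values in place of a level, 221 genes and 183 probe sets passed, none of them a member. Without 1 pool the median of the 10 members ran from -0.56 to -0.0055, the value nearest 0 being that without aged pool 2, and under the other alternatives from -0.41 to -0.33. Without probe sets ending in _x_at, _s_at or _a_at, Pecam1, Emcn and Eng had no value and the median was taken over 7 genes. No member or member probe set passed the threshold under any alternative run. Without 1 pool, gene differences ran from -0.95 to 0.050 for Pecam1, -0.86 to 0.054 for Cdh5, -0.80 to 1.96 for Kdr, -0.73 to 0.12 for Flt1, -0.64 to 0.36 for Tek, -0.42 to 0.45 for Esam and -1.79 to 0.96 for Vwf. Outside those fits the sign turned for Esam with each array centred on its median (-0.028) and for Cdh5 probe set 1422047_at with quantile normalization (0.10). Among probe sets of genes with several, the sign also turned without 1 pool for Cdh5 1422047_at (-1.06 to 1.00), Flt1 1419300_at (-0.26 to 0.54), 1451756_at (-1.95 to 0.50) and 1454037_a_at (-0.39 to 0.11), and Eng 1417271_a_at (-0.62 to 0.072) and 1432176_a_at (-1.28 to 0.50). List medians lay on both sides of 0 without 1 pool for transcription factors (-0.24 to 0.34), capillary (-0.44 to 0.03), arterial (-0.02 to 0.29) and venous genes (-0.23 to 0.11) and ligands (-0.19 to 0.0042). The medians of the pan-endothelial list (0.08 to 0.24), the lymphatic list (0.01 to 0.39), the platelet list (0.06 to 0.16) and the satellite cell list (0.16 to 0.22) also moved by over 1.5 times without 1 pool, and the satellite cell median was -0.07 without the probe sets with those suffixes. The platelet genes Gp9 (-0.011 to 1.53) and Ppbp (-0.028 to 0.66) also changed sign. With the replicate number as a block, no member passed and the count of genes stayed at 0 (1768 at an unadjusted p under 0.05). The differences of the members and their median (-0.37) are the same with the replicate block by construction. The correlation over genes of number 1 minus number 2 between aged and young pools was 0.138, and the labels do not say that a number marks a shared day or batch. With 2 pools per age, a 2-fold lower value in aged pools lay within the gene fit's interval of all 10 genes. A 2-fold higher value lay within that of 4 in the gene fit, and of further members in the fit over single probe sets.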
